A study of Mus musculus with 20 samples.

Results

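Endothelial and angiogenic genes were described in mouse visceral fat, by 10 genes chosen by symbol: the endothelial markers Pecam1, Cdh5, Vwf and Emcn, the receptors Kdr, Flt1 and Tek, and the secreted factors Vegfa, Angpt1 and Angpt2. They are 10 of the 18162 genes that have a probe set with 1 symbol, and hold 17 of 45101 probe sets on the Affymetrix Mouse Genome array. A probe set is a group of short probes that reads 1 transcript, and each gene was represented by its probe set with the highest mean. All 10 genes were tested, since their representing probe sets exceeded an intensity of 100, the expression threshold of the study, on at least 5 of 20 arrays, as did 19802 probe sets in all.

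Visceral fat RNA was hybridised from 20 C57BL/6J female mice, 1 array per mouse, to compare a high fat (HF) diet with a control diet in pregnant and non pregnant mice. The 4 groups of 5 mice were HF pregnant (58% fat, E18.5), HF non pregnant (58% fat), control pregnant (10% fat, E18.5) and control non pregnant (10% fat). Since the labels put non pregnant mice at E18.5 too, mice were grouped by pregnancy status and diet. The labels name no transgene or allele. The females that became pregnant were on their diet before mating with chow-fed males, and visible lymph nodes were dissected away. The methods define visceral fat as gonadal and mesenteric, and the legend of the array figure names the mesenteric depot.

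Capillary endothelium lines the vessels that supply oxygen and lipid to adipocytes, and fat is known as a tissue in which the vascular bed is remodelled as the depot grows or shrinks. VEGF-A, secreted by adipocytes and other cells, signals through VEGFR2 (Kdr) on endothelium, while VEGFR1 (Flt1) binds the same ligand and acts largely as a decoy. Angiopoietin 1 activates the receptor Tie2 (Tek) and stabilises vessels, and angiopoietin 2, made by endothelium itself, acts on Tie2 in a manner that depends on context and often loosens vessels.

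The endothelial genes were measured on every array: Pecam1, Cdh5, Vwf, Emcn, Kdr, Flt1 and Tek exceeded 100 in all 20 mice, as did Vegfa, whereas Angpt1 exceeded 100 in 17 and Angpt2 in 11. Other cells were present as well. Summed intensities of 10 B and T cell markers lay between 1183 and 9307 in HF pregnant, 2561 and 19811 in HF non pregnant, 816 and 13164 in control pregnant mice, and 1099 and 6807 in control non pregnant mice. Summed intensities of 8 adipocyte markers lay between 53933 and 71807 in HF pregnant, 41191 and 72271 in HF non pregnant, 51406 and 80365 in control pregnant mice, and 66320 and 70519 in control non pregnant mice. Pancreatic acinar markers stood far above the other arrays in control pregnant mouse 2 and control non pregnant mouse 4, with mean log2 deviations of 5.93 and 5.62, followed by control pregnant mouse 5 with 1.95. The array medians of intensity ran between 60.7 and 64.7. In a bulk sample, fewer cells of a type and less RNA per cell cannot be told apart.

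No endothelial or angiogenic gene passed the test in any of 7 comparisons at an adjusted p of 0.05 (limma, Benjamini-Hochberg over 19802 probe sets). Pregnancy on the HF diet gave 0 of 10 called genes, where 0.0252% of all probe sets were called, and pregnancy on the control diet gave 0 of 10, where 0% were. Diet gave 0 of 10 in pregnant mice, where 0.192% were called, and 0 of 10 in non pregnant mice, where 0% were. Diet averaged over pregnancy status gave 0 of 10 against 1.24%, pregnancy averaged over diets 0 of 10 against 0.0101%, and the difference between the pregnancy differences, HF minus control, 0 of 10 against 0%.

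At an unadjusted p under 0.05, 4 of 10 genes passed for the diet average, where 29.6% of all probe sets did; 3 were higher in HF (16.1% of all) and 1 was lower (13.5% of all). The counts at that level were 1 of 10 for pregnancy on the HF diet (4.66% of all), 0 of 10 for pregnancy on the control diet (2.9%), 3 of 10 for diet in pregnant mice (12.8%), 3 of 10 for diet in non pregnant mice (17.7%), 0 of 10 for the difference of differences (3.08%) and 1 of 10 for the pregnancy average (4.59%). In all 40 comparisons of 5 against 5 mice, 4 for each gene, the intensities of the groups overlapped. Among all probe sets 1.53% had no overlap for pregnancy on the HF diet, 0.217% on the control diet, 3.51% for diet in pregnant mice and 2.19% in non pregnant mice.

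**Figure D1:**
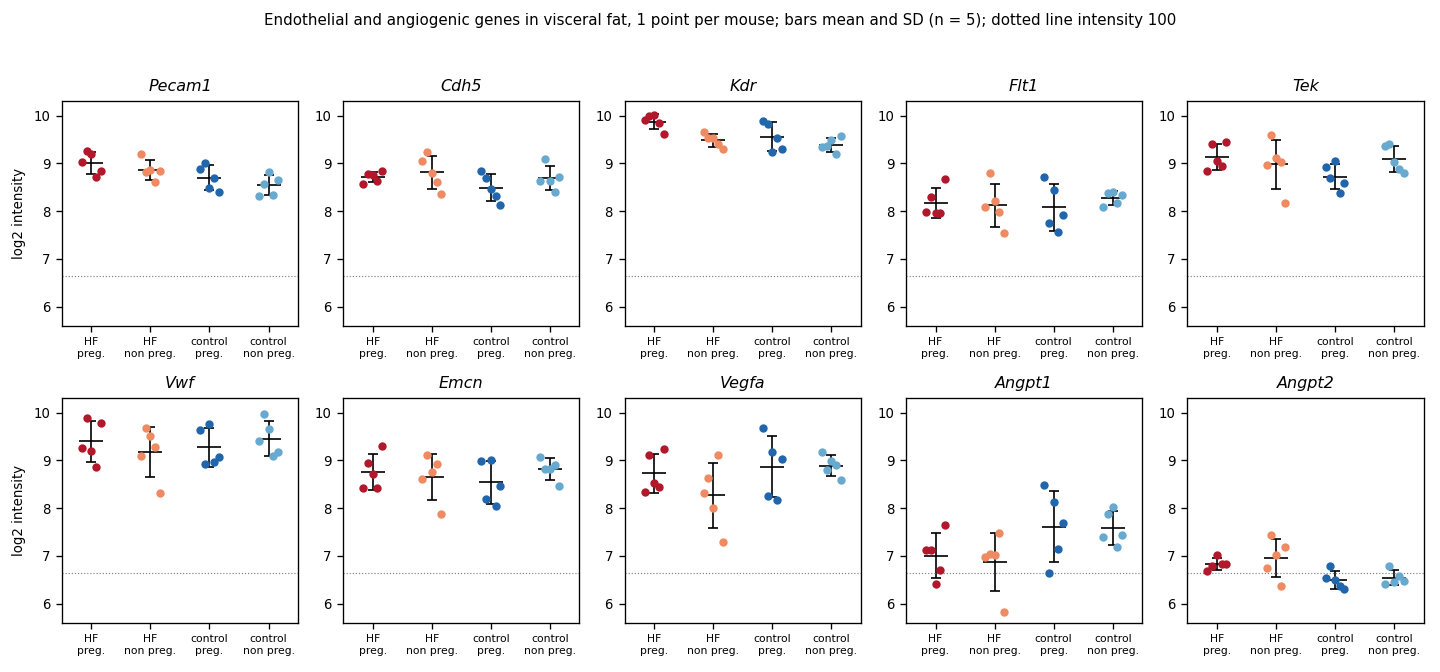
Intensity on a log2 axis (vertical) of the 10 endothelial and angiogenic genes in HF pregnant, HF non pregnant, control pregnant and control non pregnant mice (horizontal), with 1 point per mouse, the mean and SD as bars (n = 5) and the threshold of 100 as a dotted line. All groups overlap; Angpt2 lies above 100 in 5 HF pregnant and 4 HF non pregnant mice, against 1 control pregnant and 1 control non pregnant mouse.

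Pecam1 encodes CD31, a junction protein of endothelium that platelets and some leukocytes also carry. Its intensity was 523, 611, 589, 417 and 455 in HF pregnant mice, against 471, 518, 359, 415 and 339 in control pregnant mice. It was 588, 453, 461, 392 and 455 in HF non pregnant mice, against 321, 378, 452, 325 and 403 in control non pregnant mice. The HF mice tended to the upper end at both states, with overlap in each. The log2 difference was 0.31 (SE 0.14) in pregnant and 0.32 (SE 0.14) in non pregnant mice, for which limma gave adjusted p values of 0.377 and 0.281. Averaged over pregnancy status it was 0.31 (SE 0.10, 95% interval 0.10 to 0.53, limma adjusted p = 0.0883), or 1.24-fold. A two-sided exact permutation of diet within each pregnancy status, over 63504 regroupings, gave p = 0.00671 for this gene alone. Without the 2 arrays highest in pancreatic markers the difference was 0.33 (limma adjusted p = 0.0499), without the 3 highest, chosen after seeing the data, 0.29 (limma adjusted p = 0.0674), and without control pregnant mouse 2 alone it was 0.35 (limma adjusted p = 0.0297). With each single array left out in turn, the diet average ran between 0.27 and 0.35 (limma adjusted p 0.0297 to 0.174). The pregnancy average of Pecam1 was 0.15 (SE 0.10, limma adjusted p = 1).

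Cdh5, the adhesion protein VE-cadherin of endothelial junctions, had intensities of 380.2, 439, 433, 396 and 455 in HF pregnant mice and 528, 604, 444, 389 and 328 in HF non pregnant mice. In control pregnant mice it was 457, 416, 353, 320.0 and 280.3, and in control non pregnant mice 396, 541, 394, 336 and 422. The HF pregnant mice lay close together within the range of the HF non pregnant mice. The diet average of Cdh5 was 0.17 (SE 0.11, limma adjusted p = 0.293) and its pregnancy average -0.15 (SE 0.11, limma adjusted p = 1). A further Cdh5 probe set stayed between 26.4 and 51.1 on all arrays and was left out of the fit.

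Vwf, the clotting factor that endothelium stores and that platelets also hold, had intensities of 611, 951, 583, 465 and 882 in HF pregnant mice and 545, 817, 727, 622 and 320.0 in HF non pregnant mice. In control pregnant mice it was 792, 482, 872, 497 and 540.2, and in control non pregnant mice 679.7, 1000.0, 805, 542 and 576. The groups covered much the same range. The diet average was -0.08 (SE 0.18, 95% interval -0.46 to 0.31, limma adjusted p = 0.791) and the pregnancy average 0.02 (SE 0.18, 95% interval -0.37 to 0.40, limma adjusted p = 1). Of 3 platelet markers tested, 0 were called in either average, where 1.24% of all probe sets were for diet and 0.0101% for pregnancy. At an unadjusted p under 0.05, 1 of 3 was higher for diet (16.1% of all) and 1 for pregnancy (2.07%). Itga2b was the highest, at 0.40 for diet and 0.39 for pregnancy, and Pf4 the lowest, at -0.12 and -0.007.

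Emcn encodes endomucin, a surface sialomucin of capillary and venous endothelium. Its intensity was 344, 492, 419.6, 341 and 627 in HF pregnant and 389.7, 552, 435, 483 and 234 in HF non pregnant mice. It was 509, 292, 515, 264 and 351 in control pregnant mice and 538, 451, 453, 481 and 353 in control non pregnant mice. The lowest value of all was HF non pregnant mouse 5. The diet average of Emcn was 0.03 (SE 0.17, 95% interval -0.32 to 0.38, limma adjusted p = 0.92), and the pregnancy average -0.09 (SE 0.17, 95% interval -0.44 to 0.26, limma adjusted p = 1).

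Within groups, Emcn varied most closely with Vegfa among the 45 pairs of these genes (r = 0.894 over 20 arrays), so the sequences just upstream of both genes are shown, from RefSeq on GRCm38.p6. Windows were held for 5 of the 10 genes, Emcn, Tek, Kdr, Flt1 and Vegfa. Each window is the upstream part of a stretch of 300 bases around 1 annotated start. It ends 5 bases before the RefSeq gene start of Emcn and 21 bases before that of Vegfa, and holds 230 bases read 5′ to 3′ on the gene's strand. Capitals mark matches on either strand to the motifs searched. These were GGAAG (GGAA, the core of ETS factors abundant in endothelium, with a further G) and ACGTG (core of the hypoxia response element). GGGCGG (bound by Sp factors) and TATAAA (a start site element) were searched as well. GGAA without the further G was not searched. Emcn lies on the plus strand, window chr3:137340828-137341057, and Vegfa on the minus strand, window chr17:46032398-46032627.
Emcn: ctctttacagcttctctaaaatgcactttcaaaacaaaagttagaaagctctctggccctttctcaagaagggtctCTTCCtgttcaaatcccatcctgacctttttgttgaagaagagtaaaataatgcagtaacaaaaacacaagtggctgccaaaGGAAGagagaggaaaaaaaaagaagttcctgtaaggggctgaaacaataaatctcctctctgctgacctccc
Vegfa: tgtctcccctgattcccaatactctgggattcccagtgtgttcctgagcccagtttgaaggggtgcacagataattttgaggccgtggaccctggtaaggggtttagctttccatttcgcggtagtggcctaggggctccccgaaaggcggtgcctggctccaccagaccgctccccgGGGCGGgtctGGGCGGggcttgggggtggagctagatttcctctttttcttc
The Emcn window had a GC content of 40.4% and 2 GGAAG matches, 1 on each strand, a motif found in 60.3% of 32851 windows of this length. The Vegfa window had a GC content of 59.1% and 2 matches to the Sp motif, which was found in 29.8% of windows. Neither the hypoxia core (15.1% of windows) nor the start site element (11.8%) was present in either. Of 2 windows held for Vegfa 1 was used, and sequence farther upstream of either gene was not searched. None of the strings searched was matched in both, and shorter ETS sites were not counted.

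Kdr, the main signalling receptor for VEGF-A, had intensities of 958, 1011, 1034, 914 and 786 in HF pregnant mice, against 805, 744, 742, 673 and 629 in HF non pregnant mice. It had 949.8, 909, 599.9, 737 and 629 in control pregnant mice, against 649, 659, 715, 582 and 757 in control non pregnant mice. Of the HF pregnant mice, 4 lay above all HF non pregnant mice and the fifth between them, and the control pregnant mice overlapped widely with the control non pregnant ones. HF pregnant exceeded HF non pregnant by 0.39 on the log2 scale (SE 0.12, 95% interval 0.13 to 0.65, limma adjusted p = 0.688). The two-sided exact permutation p was 0.0159, where 0.00794 is the smallest that 252 regroupings allow. The same difference in control mice was 0.17 (SE 0.12, limma adjusted p = 0.963). Without control pregnant mouse 1 it was 0.082, without control pregnant mouse 2 it was 0.098, and without the 2 arrays highest in pancreatic markers 0.0474.

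Averaged over diets, Kdr was 0.28 higher in pregnant mice (SE 0.09, 95% interval 0.09 to 0.46, limma adjusted p = 0.733), or 1.21-fold. By p it was at place 147 of 19802 probe sets, and the exact permutation p within diets was 0.00819 for this gene alone. HF pregnant exceeded control pregnant by 0.32 (SE 0.12, limma adjusted p = 0.305), HF non pregnant exceeded control non pregnant by 0.10 (SE 0.12, limma adjusted p = 0.612), and the diet average was 0.21 (SE 0.09, limma adjusted p = 0.142).

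Flt1, the receptor VEGFR1, had intensities of 254, 316, 248, 248 and 407 in HF pregnant and 269.6, 445, 295, 254 and 186 in HF non pregnant mice. It had 420.0, 217, 349, 188 and 241 in control pregnant mice and 271, 335, 338, 286 and 325 in control non pregnant mice. The control non pregnant mice were the closest together and lay inside the range of the other groups. The diet average was -0.03 (SE 0.16, 95% interval -0.36 to 0.31, limma adjusted p = 0.914) and the pregnancy average -0.07 (SE 0.16, 95% interval -0.41 to 0.26, limma adjusted p = 1). A pair of further Flt1 probe sets passed the filter, with diet averages of -0.04 and -0.13 (limma adjusted p = 0.903 and 0.571).

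Tek, the angiopoietin receptor Tie2, had intensities of 459, 679, 527, 491 and 699.8 in HF pregnant mice, against 484, 411, 528, 332 and 386 in control pregnant mice. It had 501, 777, 556, 520.5 and 287 in HF non pregnant mice and 661, 673, 519.7, 471 and 446 in control non pregnant mice. The control pregnant mice were low, but overlapped each of the other groups. Control pregnant stood below control non pregnant with a log2 difference of -0.37 (SE 0.21, limma adjusted p = 0.963), and HF pregnant above control pregnant with 0.41 (SE 0.21, limma adjusted p = 0.418). The pregnancy difference on the HF diet minus that on the control diet was 0.53 (SE 0.30, 95% interval -0.10 to 1.16, limma adjusted p = 0.933). Without HF non pregnant mouse 5 it was 0.33. With all arrays it was the largest such value among the 10 genes, whose median was 0.24 (8 positive and 2 negative), where that over all genes was 0.002. The diet average of Tek was 0.15 (SE 0.15, limma adjusted p = 0.493) and the pregnancy average -0.11 (SE 0.15, limma adjusted p = 1).

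Vegfa, the growth factor that Kdr and Flt1 bind, had intensities of 318, 395, 255, 555 and 157 in HF non pregnant mice, against 581, 442, 509, 475 and 385 in control non pregnant mice. It had 325, 555, 368, 346 and 599 in HF pregnant mice and 816, 306, 581, 287 and 522 in control pregnant mice. HF non pregnant mouse 5 had the lowest value and control pregnant mouse 1 the highest of all arrays. HF non pregnant stood below control non pregnant with a log2 difference of -0.62 (SE 0.31, 95% interval -1.28 to 0.04, limma adjusted p = 0.282). HF pregnant exceeded HF non pregnant by 0.46 (SE 0.31, limma adjusted p = 1). Without HF non pregnant mouse 5 these differences were -0.38 and 0.22. The diet average was -0.38 (SE 0.22, limma adjusted p = 0.24) and the pregnancy average 0.22 (SE 0.22, limma adjusted p = 1), which was 0.0943 without that mouse and 0.11 without control pregnant mouse 1. A dimmer Vegfa probe set gave -0.48 for HF non pregnant against control non pregnant (limma adjusted p = 0.281) and -0.36 for the diet average (limma adjusted p = 0.122).

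Angpt1, the agonist of Tie2, had intensities of 139, 138, 85.5, 104 and 201 in HF pregnant mice, against 355, 99.1, 279, 140.5 and 205 in control pregnant mice. It had 126, 131, 130.0, 178 and 57.0 in HF non pregnant mice, against 167, 236, 260.0, 146 and 173 in control non pregnant mice. Most HF mice were low, but in each state the groups overlapped. The log2 difference was -0.61 (SE 0.34, limma adjusted p = 0.443) in pregnant mice, and -0.72 (SE 0.34, limma adjusted p = 0.281) in non pregnant mice. It was -0.39 in pregnant mice without control pregnant mouse 1, and -0.46 in non pregnant mice without HF non pregnant mouse 5. The diet average was -0.66 (SE 0.24, 95% interval -1.16 to -0.16, limma adjusted p = 0.107), or 0.631-fold, with an exact permutation p within pregnancy status of 0.0143. Its pregnancy average was 0.08 (SE 0.24, limma adjusted p = 1).

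With the mean of the B and T cell markers of each array as a covariate, the diet average was -0.35 for Angpt1 (limma adjusted p = 0.284) and -0.08 for Vegfa (limma adjusted p = 0.788). The mean log2 deviation of those markers was 0.27 in HF pregnant and 0.64 in HF non pregnant mice, against -0.23 in control pregnant mice and -0.68 in control non pregnant mice (SD 1.16, 1.06, 1.56 and 1.11). The part of lymphoid RNA in the differences was not tested further. Without the 2 arrays highest in pancreatic markers the diet average of Angpt1 was -0.84 (limma adjusted p = 0.0439), without the 3 highest -0.86 (limma adjusted p = 0.0463), and without control pregnant mouse 2 alone -0.79 (limma adjusted p = 0.03). With each single array left out in turn, the diet average of Angpt1 ran between -0.79 and -0.53 (limma adjusted p 0.03 to 0.205). A second Angpt1 probe set never exceeded 100 and was left out of the fit. It was named after its values were seen: 18.1 to 21.3 in HF non pregnant mice, against 22.3 to 29.0 in control non pregnant mice, with no overlap (2.19% of the probe sets tested had none), and 17.2 to 23.9 in HF pregnant, against 17.8 to 29.0 in control pregnant mice.

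Angpt2, the angiopoietin that endothelium releases, had intensities of 103, 109.9, 129.8, 114 and 113 in HF pregnant mice, against 92.8, 110, 89.7, 82.2 and 78.6 in control pregnant mice. It had 108, 173, 130.1, 83.1 and 145 in HF non pregnant mice, against 84.6, 111, 87.8, 95.3 and 89.0 in control non pregnant mice. All HF pregnant mice exceeded 100, as did 1 control pregnant mouse, and the HF non pregnant mice were widely spread. The log2 difference was 0.33 (SE 0.15, limma adjusted p = 0.365) in pregnant mice and 0.41 (SE 0.15, limma adjusted p = 0.281) in non pregnant mice. The diet average was 0.37 (SE 0.11, 95% interval 0.15 to 0.60, limma adjusted p = 0.0728), or 1.295-fold, and had the smallest adjusted p of the 10 genes. The exact permutation p within pregnancy status was 0.00302.

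Angpt2 lay close to the threshold of 100. It exceeded 100 in 5 HF pregnant and 4 HF non pregnant mice, against 1 control pregnant and 1 control non pregnant mouse. It thus passed the filter of 5 arrays only through the HF mice, where it was higher. Its diet values, with their limma and permutation p, are therefore not independent of the filter and are given as a description. With intensities under 100 set to 100, its diet average was 0.24 (limma adjusted p = 0.0915). Without HF non pregnant mouse 4 it was 0.45 (limma adjusted p = 0.0139), without control pregnant mouse 2 it was 0.41 (limma adjusted p = 0.0265), and without the 2 arrays highest in pancreatic markers 0.41 (limma adjusted p = 0.0441). Without the 3 highest it was 0.39 (limma adjusted p = 0.0517). With each single array left out in turn it ran between 0.31 and 0.45 (limma adjusted p 0.0139 to 0.139). The pregnancy average of Angpt2 was -0.09 (SE 0.11, limma adjusted p = 1). The angiopoietins had diet averages of opposite sign, Angpt2 0.37 and Angpt1 -0.66, while the difference between them was not tested.

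**Figure D2:**
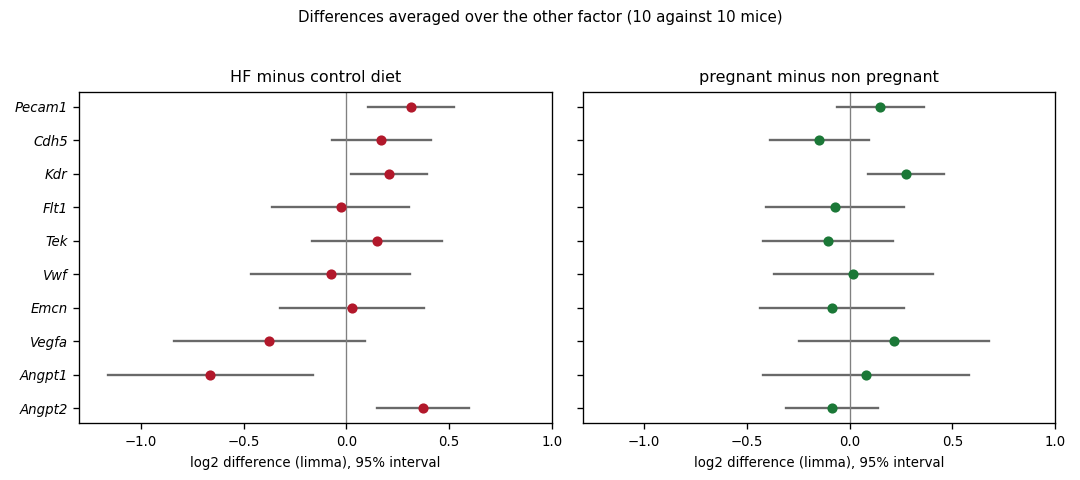
Log2 difference with its 95% interval (horizontal, limma) for the 10 genes (vertical), HF minus control diet at left and pregnant minus non pregnant at right, each 10 against 10 mice and averaged over the other factor. The diet intervals of Pecam1, Kdr, Angpt1 and Angpt2 and the pregnancy interval of Kdr lie off 0, and no gene passed an adjusted p of 0.05.

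Over the 10 genes, the pregnancy difference on the log2 scale had a median of 0.14 on the HF diet (range -0.13 to 0.46, median of all genes 0) and -0.12 on the control diet (range -0.37 to 0.17, all genes -0.002). The diet difference had a median of 0.22 in pregnant mice (range -0.61 to 0.41, all genes 0.05) and -0.14 in non pregnant mice (range -0.72 to 0.41, all genes -0.01). These comparisons share arrays. Of 26 other endothelial genes, from adhesion proteins to transcription factors of vessels, 25 were tested and 0 were called in any comparison (limma). Their pregnancy difference had a median of 0.09 on the HF diet (17 positive and 8 negative) and -0.205 on the control diet (7 and 18). Their diet difference had a median of 0.24 in pregnant (23 and 2) and 0.035 in non pregnant mice (14 and 11). For the difference of pregnancy differences, HF minus control, the median was 0.21 (21 and 4, all genes 0.002). Their diet average had a median of 0.12 (21 positive and 4 negative), between Plvap, a diaphragm protein of fenestrated capillaries, at 0.42 and Nos3, endothelial nitric oxide synthase, at -0.43. At an unadjusted p under 0.05, 6 of these were higher and 1 lower in HF (16.1% and 13.5% of all probe sets). Their pregnancy average had a median of -0.07 (10 positive and 15 negative), between Plvap at 0.44 and Aqp1, a water channel of capillaries, at -0.62. Here 4 were higher and 2 lower at an unadjusted p under 0.05, where 2.07% of all probe sets were higher and 2.51% lower.

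The other VEGF ligands and receptors (6 of 7 tested) had 0 called genes by limma in both averages. Their diet averages ran between -0.38 for Vegfb, a ligand of Flt1, and 0.46 for Flt4, the receptor of lymphatic endothelium, with a median of 0.19. At an unadjusted p under 0.05, 1 of 6 was higher and 1 lower for diet (16.1% and 13.5% of all probe sets), and 1 was higher for pregnancy (2.07%). The lists overlap, since Flt4 is also on the lymphatic list. Tie1 and Ptprb, of the angiopoietin and Tie list, are also among the other endothelial genes. The other genes of the angiopoietin and Tie pathway (4 of 5 tested) had 0 called, with a median diet average of 0.18, between Svep1 at -0.15 and Adam17, the protease that sheds receptors, at 0.29, and 2 of 4 were higher at an unadjusted p under 0.05 (16.1% of all).

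The 10 genes did not vary as 1 block between mice of a group. Taking log2 deviations from group means over 20 arrays, Flt1, Tek, Vwf, Emcn, Vegfa and Angpt1 correlated with each other in all 15 pairs (r between 0.624 and 0.894, median 0.801); they were grouped after these values were seen. Pecam1 and Kdr correlated with each other (r = 0.804). The 18 correlations of those 6 genes with Pecam1, Kdr and Angpt2 ran between -0.358 and 0.227. Cdh5 stood between, with r = 0.663 to Flt1, 0.71 to Tek, 0.58 to Kdr and 0.475 to Pecam1. Values of 1 array share its RNA, its mixture of cells and its normalization, and all these correlations are descriptions with no test.

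**Figure D3:**
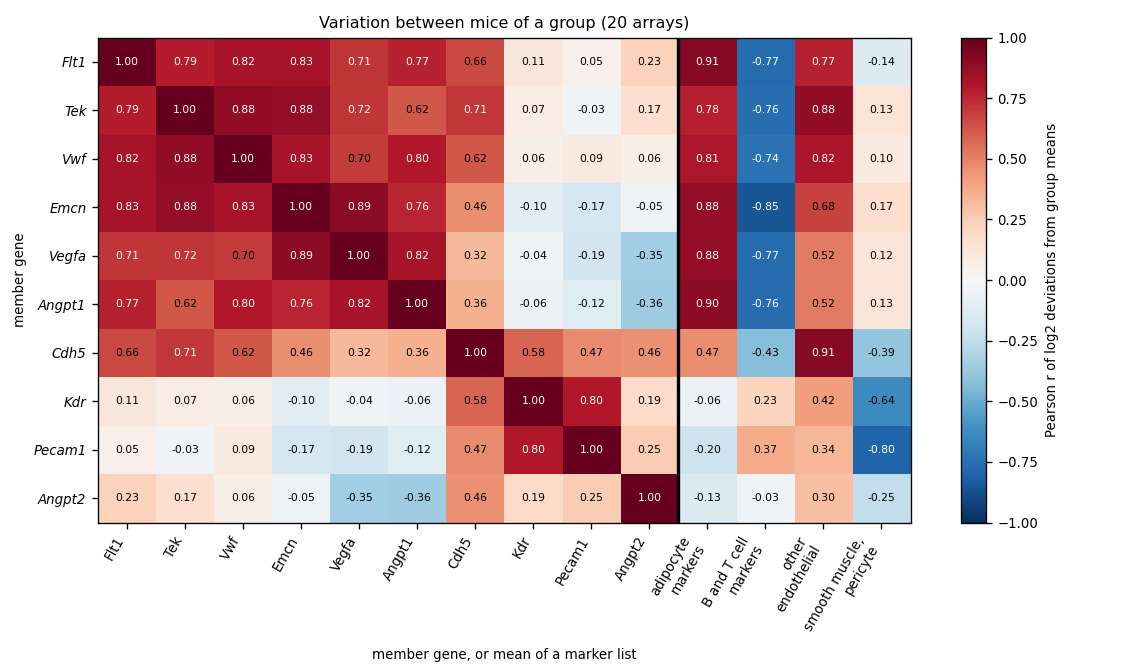
Pearson r over 20 arrays of log2 deviations from group means, between the 10 genes (left of the line) and between each gene and the mean of 4 marker lists (right of it), in color between -1 and 1. Flt1, Tek, Vwf, Emcn, Vegfa and Angpt1 form a block that is positive with adipocyte markers and negative with B and T cell markers, and Pecam1 and Kdr pair apart from it.

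The same 6 genes followed the adipocyte markers, with r between 0.775 for Tek and 0.91 for Flt1 (Spearman's rho 0.759 to 0.928). With the 2 arrays farthest from the median of the marker mean left out, r lay between 0.727 and 0.91. Over 10598 genes the median r to this mean was 0.151, and between 2.62% and 15.5% of genes had a higher r than these 6. With the B and T cell markers their r ran between -0.855 for Emcn and -0.738 for Vwf (rho -0.863 to -0.695, r -0.814 to -0.647 with 2 arrays left out), where the median over all genes was -0.22. The 2 marker means were themselves inversely related (r = -0.82). With the adipocyte markers, r was -0.204 for Pecam1, -0.061 for Kdr and -0.133 for Angpt2.

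The array of HF non pregnant mouse 5 had the lowest value of its group for 8 of the 10 genes, all but Pecam1 and Angpt2. Among the 8 was Kdr, which did not follow the adipocyte markers. Taking deviations from the mean of all 20 arrays, this mouse had the lowest adipocyte markers (mean log2 deviation -0.98). Its B and T cell markers were the highest, with 1.998. On the same scale control pregnant mouse 1 had the highest adipocyte mean (0.76) and the lowest B and T cell mean (-2.25). It had the highest value of its group for 5 of the 10 genes: Cdh5, Kdr, Flt1, Vegfa and Angpt1. Tek, Vwf and Emcn were highest in control pregnant mouse 3.

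**Figure D4:**
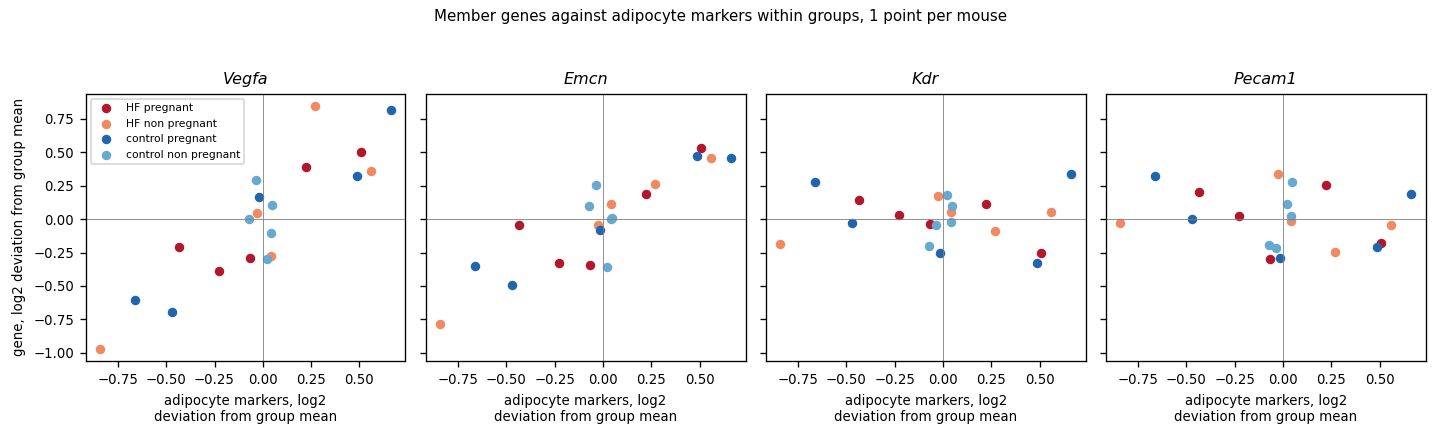
Log2 deviation from the group mean of Vegfa, Emcn, Kdr and Pecam1 (vertical) against that of the mean of 8 adipocyte markers (horizontal), 1 point per mouse, with groups in color. Vegfa (r = 0.875) and Emcn (r = 0.882) follow the markers, and Kdr (r = -0.061) and Pecam1 (r = -0.204) show no such trend.

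With the mean of the other endothelial genes, Cdh5 had r = 0.909 (rho = 0.928, r = 0.877 with 2 arrays left out), and 0.0189% of 10598 genes had a higher value. Tek had r = 0.884 and Vwf 0.82, against 0.335 for Pecam1, 0.421 for Kdr and 0.3 for Angpt2. Smooth muscle and pericyte markers went the other way for Pecam1 (r = -0.804, rho = -0.731, r = -0.719 with 2 arrays left out) and Kdr (r = -0.635, rho = -0.674, r = -0.541 with 2 arrays left out), and r for the 6 genes of the block lay between -0.136 and 0.167. Mean deviations of these markers were 0.24 in HF pregnant and -0.08 in HF non pregnant mice, against -0.35 in control pregnant mice and 0.19 in control non pregnant mice, with SDs between 0.32 and 0.81. Their part in the values of Pecam1 and Kdr was not tested.

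Among 10588 other genes, the 5 most like Cdh5 in these deviations were Fgd5 (r = 0.922), an exchange factor of endothelium, Ablim3 (0.894), Nrarp (0.87), a feedback inhibitor of Notch signalling, Septin4 (0.856) and Robo4 (0.846), an endothelial guidance receptor. The 5 most like Vegfa were Lgals12 (r = 0.959), a galectin of adipocytes, Bckdhb (0.955), a subunit of the branched-chain keto acid dehydrogenase, Gzf1 (0.954), Chst1 (0.953) and Asns (0.951), asparagine synthetase.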

How the data were processed

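RNA of visceral fat was measured on the Affymetrix Mouse Genome array in 20 mice, 5 in each of 4 groups. The authors normalized the scans by robust multi-array average (RMA, affy, R 2.8.0 in the submitters' processing notes) and deposited linear intensities of 45101 probe sets for each mouse. The extraction is given as Trizol in the labels and as silica columns in the methods. Arrays carry no read depth; their number limits the precision. The files held 0 columns of no sample.

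The log2 of the intensity was taken. A filter on low values required an intensity over 100 on 5 or more of the 20 arrays, whatever their group, and 64 manufacturer controls were left out, leaving 19802 probe sets. The brightest probe set of a single symbol, by its mean, stands for its gene. With limma 3.58.1 in R 4.3.3, 4 group means were fitted with 1 shared spread, 7 contrasts were read, and p values were adjusted by Benjamini-Hochberg. P values measure the spread between separate mice. Two-sided exact permutation tests used 252 regroupings, or 63504 for the averages. The fit was also run on simulated data, with changes larger than any difference of these genes. Changes as small as theirs were not simulated.

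The genes and lists were chosen with earlier results of these data known. Named were all 10 genes, called members of the lists, the highest and lowest of each list described, and the 5 nearest neighbours of Cdh5 and Vegfa. Replicate numbers were not used to pair the arrays, since 30 same-numbered pairs had a median correlation of -0.16 (-0.75 to 0.67). Pairs with different numbers were not set beside these, so the values do not settle whether any pairing existed. Alternatives were other filters, moderation, array weights, the compared groups alone, median centring, repeated quantile normalization, the mean of a gene's probe sets, a floor of 100, a replicate block, arrays left out, and, chosen after seeing the data, the B and T cell marker mean as a covariate and 3 arrays highest in pancreatic markers left out. No genome build is named by the study; upstream sequences came from RefSeq (GRCm38.p6).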

Additional observations from a re-analysis of the deposited data

How the results depend on the processing

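No gene was called in the reported fit, and array weights were the setting that moved most. With them 1 gene was called for HF pregnant against HF non pregnant (Kdr), 3 for HF pregnant against control pregnant (Pecam1, Kdr and Angpt2), 5 for HF non pregnant against control non pregnant (Pecam1, Cdh5, Kdr, Vegfa and Angpt2), 7 for the diet average (all but Flt1, Vwf and Emcn) and 1 for the pregnancy average (Kdr). The weights ran between 0.233 and 11.3, the highest for HF non pregnant mouse 3, where the others of its group had 0.238 to 0.795. Control non pregnant mouse 4 had 4.45 (others of its group 0.669 to 0.883) and control pregnant mouse 5 had 2.46 (others 0.233 to 0.712). Both are among the 3 arrays highest in pancreatic markers. In these 3 groups the weighted values thus rest largely on 1 mouse each. The cause was not tested. Without the 2 arrays highest in pancreatic markers 3 genes were called for the diet average (Pecam1, Angpt1 and Angpt2), and without the 3 highest (chosen after seeing the data) 1, Angpt1. With arrays left out singly the count ran between 0 and 3, with 3 without control pregnant mouse 2 and 1, Angpt2, without HF non pregnant mouse 4. The share of all probe sets called was not set beside the counts under array weights or with arrays left out. Those counts are therefore not read as a result particular to these genes. With a block for the replicate number 0 of 10 genes were called in each comparison, where between 0 and 19 of 19802 probe sets were. The block changed no call of these genes.

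Signs turned for values that were small against their SE, though not always small in size. The diet average of Flt1 was 0.0512 with array weights, 0.18 with the B and T cell covariate (chosen after seeing the data) and -0.11 to 0.0508 with single arrays left out. For Vwf it was 0.17, 0.16 and -0.14 to 0.0292 under the same settings, and for Emcn -0.0039 without the 2 arrays highest in pancreatic markers, -0.0325 without the 3 highest and -0.0389 to 0.13 with single arrays left out. The pregnancy average of Vwf was -0.13 with array weights and -0.089 to 0.0846 with single arrays left out, that of Flt1 -0.15 to 0.0128 and that of Angpt1 -0.0492 to 0.20. Of 70 values (10 genes by 7 comparisons), 27 changed sign under some setting, the largest of size 0.41 and 1.1 SE at most. Of 880 values under other settings, single arrays not counted, 38 reversed, 21 became called and 821 kept direction and side of the threshold; of 1400 with 1 array left out, 58 reversed, 4 became called and 1338 kept both.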

Other observations

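Among 14 tested genes of the hypoxia response, 2 were called by limma for the diet average, where 1.24% of all probe sets were: Pdk1, which restrains pyruvate oxidation, fell by 1.09 on the log2 scale in HF mice (SE 0.22, limma adjusted p = 0.0248), and Ldha, lactate dehydrogenase, fell by 0.58 (SE 0.13, limma adjusted p = 0.0384). The list's median was 0.14, with 8 positive and 6 negative, up to 0.30 for P4ha1, a collagen hydroxylase. Of 8 adipocyte markers tested, Slc2a4, the insulin-responsive glucose transporter, fell by 1.08 (SE 0.23, limma adjusted p = 0.0294), and all 8 had a negative diet average (median -0.22, with Cidec the highest at -0.05).

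Lymphatic genes (4 of 7 tested, 0 called) had diet averages between 0.13 for Reln and 0.58 for Lyve1, a hyaluronan receptor. The median was 0.32. Their pregnancy averages ran between 0.08 for Pdpn and 0.45 for Lyve1, with a median of 0.40. Prox1 and Mmrn1, also on this list, never exceeded 100 and were left out of the fit. Whether the 4 tested genes were read from lymphatic endothelium or from other cells was not tested. Notch and tip cell genes (10 of 14 tested, 0 called) had a median diet average of 0.06, between -0.20 for Jag1 and 1.20 for Cxcr4, which lymphoid cells also express. Angiogenesis inhibitors (7 of 8 tested, 0 called) had a median of -0.01, between -0.22 for Serpinf1 and 0.95 for Thbs1. At an unadjusted p under 0.05, 2 lymphatic, 2 Notch and tip cell and 2 inhibitor genes were higher in HF and 0 were lower, where 16.1% of all probe sets were higher and 13.5% lower. For the pregnancy average at that level, 2 lymphatic genes were higher, 1 Notch and tip cell gene was lower, and 1 inhibitor was higher and 1 lower, where 2.07% of all were higher and 2.51% lower.

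Of 40 groups of 5 values (10 genes by 4 groups), 0 held a mouse past Dixon's 95% limit. Placenta and decidua markers summed to between 266 and 480 over 6 genes on all arrays. The highest sum was that of a control pregnant mouse, and the other groups reached at most 323. Tpbpa exceeded 100 on 1 array (115.8, median 17.4) and Psg23 on 2 (up to 152.9, median 81.6).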
